A study of Rattus norvegicus with 90 samples.

Results

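The injury comparison at postnatal day 7 (P7) in the intranasal run set 3 libraries of injured against 3 of control rat pups, 6 of the 90 libraries of the series. They were chosen by their titles alone, which give the age, the route, IL1-beta or PBS, and no human cells. All animals were male Wistar Han rats. Injured pups had received recombinant mouse IL-1β, the cytokine interleukin-1 beta, at 20 µg per kg by intraperitoneal injection, in 10 µL, from P1 to P4 in the morning and evening and a last time at P5. Control pups had received PBS in its place. At P5 both groups were given PBS through the nose, the sham for the human umbilical cord mesenchymal stromal cells that other groups of the run received. Brains were perfused and collected 48 h later, and olfactory bulbs and cerebellum were removed. The remaining brain was dissociated and enriched with beads against CD11b/c, so every library holds all cells that carry CD11b/c and whatever else the beads retained. Litters were culled to 12 pups. The labels do not say whether each replicate was a separate animal, and p-values here measure the spread between samples. That spread was estimated from all 15 libraries of the run. These include injured pups given the human cells at 20, 50 or 125 M cells per kg. The question set by the design was what the inflammatory injury had left in the microglial transcriptome by P7.

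Microglia are the resident macrophages of the brain. In the first postnatal week they still divide to fill the tissue, and their numbers come from this proliferation. IL-1β acts on cells through its receptor and the adaptor MyD88, and the signal ends in NF-kB and AP-1 transcription factors. Systemic IL-1β in the first days of life is used in rodents as a model of the inflammation that preterm infants meet, which is followed by delayed myelination.

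The libraries are called control 1 to 3 and injured 1 to 3 by their replicate numbers. Total counts were 15.1 to 26.2 M in control and 17.3 to 19.9 M in injured libraries. Mitochondrially encoded genes took 4.75 to 6.76% of the counts in the 6 libraries. Microglial markers summed to 16980 to 17840 CPM (counts scaled to a common total by trimmed mean of M values) in control and 15000 to 16300 CPM in injured libraries, with the marker Siglech at 0 counts. Control 3 stood apart most, with a median absolute log2 difference per gene of 0.321 from control 1, against 0.157 to 0.21 between injured libraries. Between a control and an injured library that difference was 0.216 to 0.343, so the spread within controls reached into this range. No pair of libraries was a duplicate. In bulk RNA, fewer cells of a type cannot be told apart from less RNA per cell.

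Of 13872 genes tested, 772 (5.57%) differed between injured and control libraries at an adjusted p under 0.05 in edgeR's quasi-likelihood test, 371 higher (2.67%) and 401 lower (2.89%) with injury. Leaving out injured 3 left 231 calls, injured 1 left 364 and control 2 left 377. Of the 772 genes, 205 were called in each of the 6 refits that left out 1 of these libraries, 93 higher and 112 lower. The shares of 5.57% called, 2.67% higher and 2.89% lower are the background for the counts of called list members in this fit. The median log2 fold change over all tested genes was 0.02. The groups did not overlap in CPM for 24.4% of tested genes, 11.9% with injured higher and 12.5% with injured lower.

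The deepest fall among called genes was that of Ankrd55, which encodes an ankyrin repeat protein and lies in a region linked to autoimmune disease in humans. Its level was 80.2, 79.1 and 80.2 CPM in control and 8.12, 7.12 and 7.10 CPM in injured libraries. The 3 control libraries were almost equal, and every injured one was lower by about the same amount, a fall by 3.42 ± 0.34 on the log2 scale (± SE, n = 3 against 3, edgeR adjusted p = 0.000135). Its neighbour Il6st encodes gp130, the receptor subunit that carries the signal of IL-6, oncostatin M and related cytokines. Il6st was at 549, 446 and 334 CPM in control and 130.3, 91.3 and 116 CPM in injured libraries, and fell by 1.98 ± 0.25 (edgeR adjusted p = 0.000691). The control libraries spread more widely for Il6st than for Ankrd55, and the groups did not overlap for either gene. In the deposited coordinates, whose build no source used here gives, both genes lie on the forward strand of chromosome 2, Ankrd55 at 44096061 to 44196605 and Il6st at 44289393 to 44314944, 92.8 kb apart. No other protein-coding gene stands between them in the RefSeq annotation of the build GRCr8. The nearest tested genes on either side did not pass the test, Map3k1 at 0.07 ± 0.16 and Slc38a9 at -0.15 ± 0.13, and these 2 were named for their position. Reads of overlapping or antisense transcripts at this locus could not be separated, since no source used here gives the strand setting of the counting.

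Of 23 tested genes of IL-6 family signalling edgeR called 1 lower, Il6st, and 1 higher, Osm, which encodes oncostatin M. That is near the share of 5.57% called over all tested genes. DESeq2 called 2 higher and 1 lower. Osm was at 54.5, 90.7 and 90.5 CPM in control and 118, 136 and 117 CPM in injured libraries, a rise by 0.65 ± 0.16 (edgeR adjusted p = 0.0273), but its adjusted p was 0.0585 to 0.0819 without control 1 or injured 1, 2 or 3. The median of the list was 0.12 (0.22 without injured 2). The receptor chain gene Il6r stood at -0.27 ± 0.11 and the feedback inhibitor gene Socs3 at 0.64 ± 0.19 (edgeR adjusted p = 0.163 and 0.0612). By DESeq2 Socs3 passed (DESeq2 adjusted p = 0.019). Il6 itself was at 1.39, 1.06 and 0.755 CPM in control and 0.351, 0.350 and 0.424 CPM in injured libraries, near the limit of detection, with a difference of -1.53 ± 0.48 (edgeR adjusted p = 0.0770).

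Among the other large falls, Enpp6, a choline phosphodiesterase gene known from newly formed oligodendrocytes, was at 23.9, 19.1 and 16.3 CPM in control and 2.31, 3.09 and 3.13 CPM in injured libraries. All injured libraries lay far below all control ones, and the gene fell by 2.80 ± 0.28 (edgeR adjusted p = 0.000135). The oligodendrocyte markers as a list summed to 482 to 558 CPM in control and 497 to 498 CPM in injured libraries. Those sums overlapped, and Enpp6 was the 1 of 10 tested markers that was called. Ccdc8, a gene of the cullin-7 complex, was at 18.2, 11.8 and 15.2 CPM in control and 3.66, 4.38 and 4.29 CPM in injured libraries and fell by 1.88 ± 0.23. Gcnt2, which branches poly-lactosamine sugar chains, was at 23.03, 31.98 and 19.5 CPM in control and 6.97, 7.23 and 7.57 CPM in injured libraries and fell by 1.77 ± 0.20. For both, the highest injured library stayed below the lowest control library by a wide margin. Gpd1, the cytosolic glycerol-3-phosphate dehydrogenase that links glycolysis to lipid synthesis, was at 15.3, 24.8 and 22.6 CPM in control and 5.97, 6.47 and 7.68 CPM in injured libraries and fell by 1.64 ± 0.19. The nuclear pore gene Nup210 fell by 1.27 ± 0.18, the calcium-binding S100a4 by 1.27 ± 0.14 and the neuronal adhesion gene Astn1 by 1.70 ± 0.30. Blk, a Src family kinase gene of B cells, was lower in every injured library (2.59, 4.53 and 6.59 CPM against 0.902, 1.34 and 1.27 CPM) and fell by 1.94 ± 0.34. B cell markers summed to 635 to 762 CPM in control and 536 to 558 CPM in injured libraries, with Vpreb1 and Igll1 at 0; their part in the fall of Blk was not tested. Each of these genes kept its call when any 1 of the 6 libraries was left out.

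Leaving aside genes whose mean log2 CPM was under 1, Runx3, a transcription factor gene of lymphocytes and mature myeloid cells, had the largest rise that kept its call when any 1 library was left out. It was at 1.88, 3.53 and 5.77 CPM in control and 18.9, 17.03 and 22.5 CPM in injured libraries and rose by 2.44 ± 0.36 (edgeR adjusted p = 0.00159). Sdc1, which encodes the heparan sulfate proteoglycan syndecan-1, was at 13.4, 8.11 and 10.02 CPM in control and 43.4, 45.8 and 47.1 CPM in injured libraries. Its injured libraries were close together and all above the control ones, with a rise by 2.10 ± 0.19 (edgeR adjusted p = 0.000116). Cfd, the complement factor D gene that activates the alternative pathway, was at 15.8, 17.4 and 26.01 CPM in control and 52.8, 61.5 and 84.4 CPM in injured libraries and rose by 1.76 ± 0.18. Tnfaip8l3, a lipid transfer protein gene of the TNFAIP8 family, rose by 2.00 ± 0.25, and the zinc transporter gene Slc39a2 by 1.72 ± 0.32. The protease inhibitor gene Slpi rose by 1.86 ± 0.27 and Plaur, the urokinase receptor gene of migrating myeloid cells, by 1.71 ± 0.31. Slpi was at 1.39, 2.53 and 3.02 CPM in control and 7.97, 6.82 and 9.64 CPM in injured libraries, low in all libraries but without overlap. Neutrophils also carry Slpi and Plaur, and neutrophil markers summed to 38.8 to 61.6 CPM in control and 122 to 331 CPM in injured libraries; their part in these rises was not tested.

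**Figure D1:**
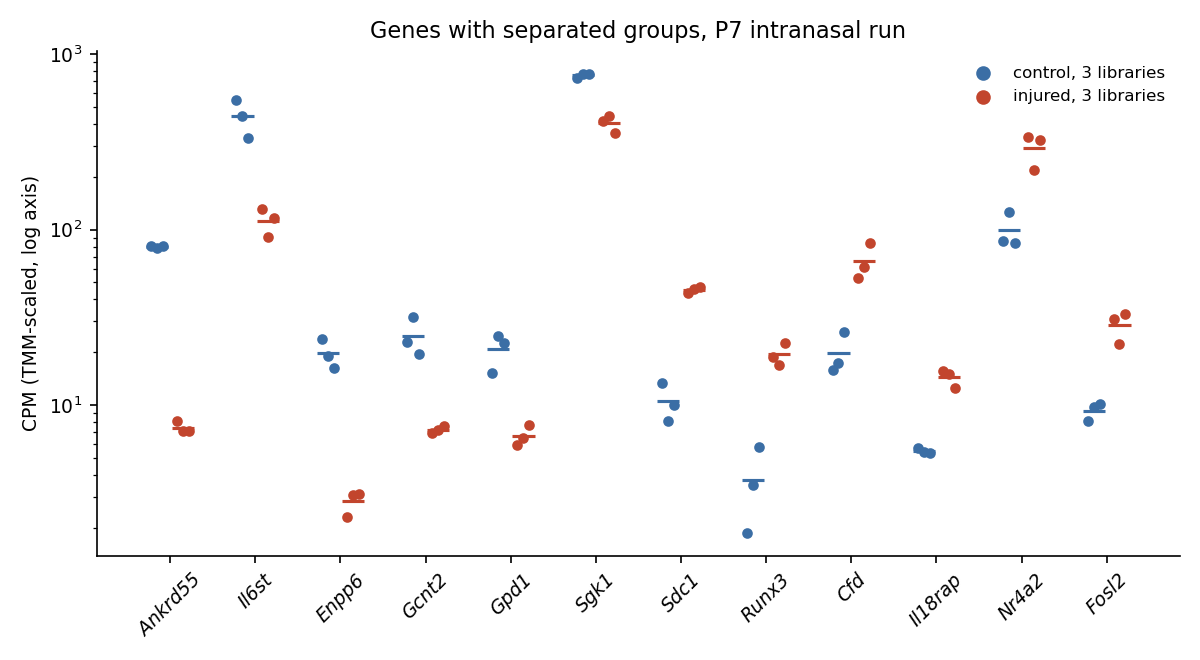
Levels of 12 genes in the 3 control (blue) and 3 injured (red) libraries of the P7 intranasal run, in CPM on a log axis, with a bar at each group's mean. For each gene the injured libraries lie wholly below (Ankrd55 to Sgk1) or above (Sdc1 to Fosl2) the control libraries.

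Genes of mitosis made up the broadest change. Of 56 genes of the spindle, the kinetochore and chromosome segregation, 46 fell and none rose (46 of 56, against 2.89% of all tested genes), and all 56 differences were negative, with a median of -0.85 against 0.02 over all tested genes. The groups did not overlap for 92.9% of them, against 24.4% of all genes. Kif20a, the kinesin of the central spindle at cell division, was at 78.8, 79.4 and 84.8 CPM in control and 33.99, 46.2 and 33.5 CPM in injured libraries and fell by 1.10 ± 0.14 (edgeR adjusted p = 0.000866). Cdc20, which activates the anaphase-promoting complex, was at 73.5, 77.8 and 90.7 CPM in control and 34.6, 48.2 and 34.1 CPM in injured libraries and fell by 1.05 ± 0.15. Pttg1, the securin that holds sister chromatids until anaphase, was at 39.7, 50.8 and 45.9 CPM in control and 15.7, 23.2 and 15.9 CPM in injured libraries, the largest fall of the list by 1.31 ± 0.19. For all 3 genes injured 2 was the highest injured library and still below every control library. Tpx2, which builds spindle microtubules, fell by 1.03 ± 0.16, the midzone protein gene Prc1 by 1.04 ± 0.16, the kinesin genes Kif22 and Kif2c by 1.03 ± 0.14 and 0.97 ± 0.16, and the condensin subunit gene Ncapd2 by 0.67 ± 0.11. The microtubule regulator gene Knstrn, a kinetochore component outside the list, fell by 1.25 ± 0.16.

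The mean level of the spindle list was 5.70, 5.79 and 5.62 log2 CPM in control and 4.73, 5.14 and 4.76 log2 CPM in injured libraries. Injured 2 thus held the highest mitotic level of its group and injured 1 and injured 3 were close to each other. The number of called members was 18 without injured 3, 26 without injured 1 and 30 without control 2, and 18 of the 46 were called in all 6 refits. The list's median lay between -1.01 and -0.77 in those refits. The least changed member was Aurka, the Aurora A kinase gene of the spindle poles, at -0.09 ± 0.10 (edgeR adjusted p = 0.676).

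The promoters of the mitotic genes held 1 short sequence far more often than other promoters did. The cell cycle homology region (CHR, TTTGAA) and the CCAAT box bound by NF-Y are the elements through which the MuvB complexes time genes of G2 and mitosis, while genes of DNA replication are timed mainly through E2F sites. In the 300 bases around the transcription start (250 before to 50 after, RefSeq, build GRCr8, both strands), TTTGAA stood in 36 of 49 promoters of the spindle list that matched 1 entry of the table (73.5%). It stood in 5 of 35 promoters of the DNA replication list (14.3%) and in 11.7% of the 9393 promoters of tested genes. CCAAT stood in 67.3%, 60% and 37.8% of the same 3 sets. The E2F sequences TTTCCCGC and TTTGGCGC stood in 20% and 25.7% of the replication promoters, in 0% and 2.04% of the spindle promoters and in 2% and 0.916% of those of tested genes. Among genes called lower, 28.9% of 298 promoters held TTTGAA, and among genes called higher 11.3% of 257. The set called lower includes the spindle genes that fell, so its share is not separate from theirs. A match of letters is not a measured binding site. Not every gene carries this difference. Kif20a and Ccnb1, which fell, hold CCAAT but no TTTGAA, and Mcm2 of the replication list holds TTTGAA and neither E2F sequence. Shown here, because they do carry it, are the 250 bases before the start of 2 mitotic genes that fell, Cdc20 and Pttg1. CCAAT and TTTGAA of either strand are in capitals. Mcm5, a replicative helicase gene whose level did not pass the test, is shown for contrast with the 2 E2F sequences in capitals and CCAAT left in lower case. All run 5′ to 3′ on the strand of the gene, Cdc20 from chr5:137255800-137256049 (minus strand), Pttg1 from chr10:28406327-28406576 (minus strand) and Mcm5 from chr19:13488563-13488812 (plus strand).
Cdc20: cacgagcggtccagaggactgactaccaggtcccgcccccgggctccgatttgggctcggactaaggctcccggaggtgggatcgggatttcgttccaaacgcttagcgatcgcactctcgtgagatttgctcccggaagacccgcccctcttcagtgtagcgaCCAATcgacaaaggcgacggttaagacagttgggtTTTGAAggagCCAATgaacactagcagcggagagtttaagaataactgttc
Pttg1: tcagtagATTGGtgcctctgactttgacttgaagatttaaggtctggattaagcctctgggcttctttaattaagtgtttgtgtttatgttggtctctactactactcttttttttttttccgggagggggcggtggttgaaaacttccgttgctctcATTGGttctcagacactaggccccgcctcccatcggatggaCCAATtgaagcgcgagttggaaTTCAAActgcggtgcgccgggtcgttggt
Mcm5: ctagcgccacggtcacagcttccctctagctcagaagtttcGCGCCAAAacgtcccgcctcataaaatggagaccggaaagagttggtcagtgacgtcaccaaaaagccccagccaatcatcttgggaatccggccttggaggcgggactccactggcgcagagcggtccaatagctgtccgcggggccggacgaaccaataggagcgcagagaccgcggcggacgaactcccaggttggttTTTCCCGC
In Cdc20 the CCAAT boxes begin 86 and 41 bases before the start and TTTGAA begins 51 bases before it. In Pttg1 CCAAT begins 243, 92 and 51 bases before the start and TTTGAA 29 bases before it, on either strand. In Mcm5 the E2F sequences begin 209 and 8 bases before the start. The capitals of one motif do not overlap those of another in these 3 promoters.

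DNA replication genes gave fewer calls and a smaller median than mitotic ones. Of 42 genes of replication and origin licensing 9 fell and none rose, with a median of -0.21. Those that fell and kept the call without any 1 library were Prim2, the large primase subunit gene, the thymidine kinase gene Tk1, and Rrm1 and Rrm2 of ribonucleotide reductase, which makes deoxynucleotides. Prim2 was at 119.8, 119 and 127 CPM in control and 61.8, 74.3 and 66.5 CPM in injured libraries and fell by 0.85 ± 0.11, and Tk1, Rrm1 and Rrm2 fell by 0.77 ± 0.13, 0.56 ± 0.10 and 0.81 ± 0.16. The sliding clamp gene Pcna, at 444, 520.4 and 476 CPM in control and 417, 483 and 411 CPM in injured libraries, and the helicase gene Mcm5, at 149.6, 166 and 195 CPM in control and 153, 176 and 161 CPM in injured libraries, overlapped between the groups. They stood at -0.14 ± 0.11 and -0.06 ± 0.10 (edgeR adjusted p = 0.549 and 0.800). The count of called replication genes was 4 without injured 1 and 5 without control 2 or 3 or injured 3. The mean level of the list was 5.59, 5.68 and 5.75 log2 CPM in control and 5.29, 5.53 and 5.38 log2 CPM in injured libraries, without overlap but closer than for the spindle list.

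Cyclin genes of mitosis fell and 1 of G1 rose. Ccnb1, the mitotic cyclin B1 gene, was at 95.1, 113 and 105 CPM in control and 40.2, 59.8 and 41.4 CPM in injured libraries and fell by 1.14 ± 0.19, its partner kinase gene Cdk1 fell by 0.96 ± 0.16 and the G2 cyclin gene Ccnf by 0.94 ± 0.16. Mki67, the general proliferation marker, was at 363, 341 and 281 CPM in control and 166, 215 and 152 CPM in injured libraries and fell by 0.88 ± 0.16 (edgeR adjusted p = 0.00602). Ccna2 of S phase and G2 fell by 0.89 ± 0.18, but its adjusted p was 0.0592 without injured 3. Ccnd2, a D-type cyclin gene of G1 entry, went the other way, from 18.1, 16.2 and 16.5 CPM in control to 39.95, 28.1 and 35.96 CPM in injured libraries, a rise by 1.03 ± 0.18 (edgeR adjusted p = 0.00393). Ccnd1, another D-type cyclin gene, stood at -0.08 ± 0.08. Of 28 tested cyclin, CDK and related transcription factor genes 9 fell and 1 rose, with a median of -0.36. The falls numbered 4 without injured 3 and 5 without control 2 or injured 1, and 5 in a fit of the 6 libraries alone.

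Of 23 CDK inhibitor, pocket protein and p53 target genes, 1 fell and 2 rose, and the rises numbered 0 without control 3 or injured 1 or 3 and 1 without control 1 or 2. Cdkn2c, the p18 inhibitor of CDK4 and CDK6, was at 38.3, 36.9 and 36.03 CPM in control and 18.2, 25.3 and 17.4 CPM in injured libraries and fell by 0.87 ± 0.16, which held without any 1 library. Pmaip1, the pro-apoptotic Noxa gene, rose by 0.91 ± 0.24 (edgeR adjusted p = 0.0396), but its adjusted p was 0.0644 to 0.141 without control 3 or injured 1 or 3. Btg2, an antiproliferative immediate early gene, rose by 0.43 ± 0.12 (edgeR adjusted p = 0.0455), but its adjusted p was 0.0681 to 0.194 without control 1, 2 or 3 or injured 1 or 3. The brake genes Cdkn1a, which encodes p21, and Cdkn1b, which encodes p27, stood at 0.54 ± 0.21 and 0.32 ± 0.19 and did not pass the test (edgeR adjusted p = 0.163 and 0.372). In a fit of the 6 libraries alone Cdkn1a passed and Cdkn1b did not (edgeR adjusted p = 0.0453 and 0.177).

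Cholesterol synthesis genes fell as the second broad group. All 27 tested differences were negative, 10 genes fell and none rose, and the median was -0.36. Msmo1, the sterol C4-demethylase gene, was at 68.6, 78.1 and 83.3 CPM in control and 43.4, 45.6 and 43.7 CPM in injured libraries and fell by 0.79 ± 0.11 (edgeR adjusted p = 0.00125). Hmgcs1, at the entry of the mevalonate pathway, fell by 0.82 ± 0.15, the farnesyl diphosphate synthase gene Fdps by 0.55 ± 0.09 and the squalene synthase gene Fdft1 by 0.58 ± 0.09. These 4 kept their call without any 1 library, and the groups did not overlap for any of them. The count of called members was 5 without injured 1 and 6 without control 2 or injured 3, while the list's mean level was 5.09, 5.18 and 5.15 log2 CPM in control and 4.72, 4.74 and 4.73 log2 CPM in injured libraries. CCAAT stood in 78.9% of the 19 promoters of this list that matched, and the sterol element TCACNCCAC in none of them and in 1.16% of those of tested genes.

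No fatty acid synthesis gene was called by edgeR, of 14 tested, while 3 were lower at an unadjusted p under 0.05 and DESeq2 called 1 lower. Fasn, the fatty acid synthase gene, stood at 0.04 ± 0.12. Of 13 LXR target and lipid efflux genes, the lipid droplet coat gene Plin2 was called, and the count of calls was 0 without injured 3 and 4 without control 3. It was at 112, 117 and 117 CPM in control and 148, 147 and 158 CPM in injured libraries and rose by 0.39 ± 0.08 (edgeR adjusted p = 0.0122), but its adjusted p was 0.0558 without control 1 and 0.0706 without injured 3. The efflux pump gene Abca1 and the apolipoprotein gene Apoe stood at 0.38 ± 0.13 and 0.51 ± 0.20 without passing the test, and 12 of the 13 differences were positive.

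**Figure D2:**
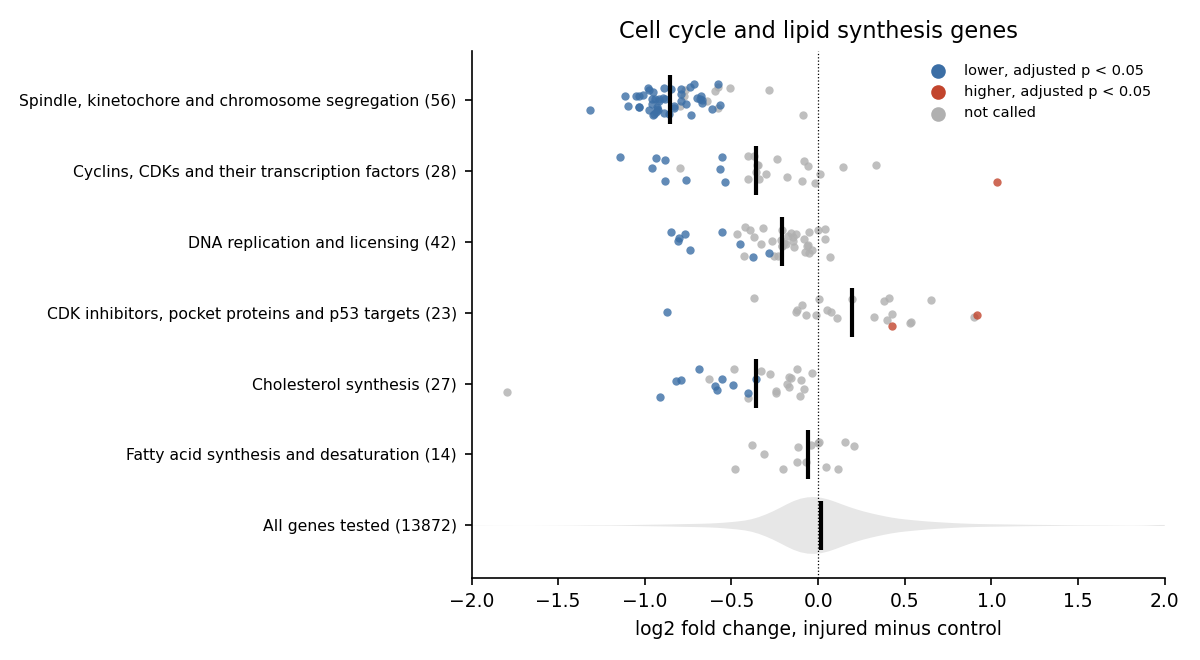
Log2 fold change, injured minus control, of each tested member of 6 gene lists (points) with the list's median (black bar), and of all 13872 tested genes as a violin drawn to 2 in each direction. Spindle genes lie around -0.85, replication and cholesterol genes around -0.21 and -0.36, and fatty acid genes around -0.06.

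The AP-1, NR4A and EGR transcription factor genes, which respond to stimuli within minutes to hours, split in direction. Of 31 tested, 6 rose and 2 fell, with a median of 0.25 (0.06 without control 1). Without control 1, 4 rose and 3 fell. Fosl2, the AP-1 subunit Fra-2, was at 8.08, 9.76 and 10.1 CPM in control and 31.1, 22.2 and 32.9 CPM in injured libraries and rose by 1.63 ± 0.22 (edgeR adjusted p = 0.00107). Nr4a2, the orphan nuclear receptor Nurr1 that restrains inflammatory genes in microglia, was at 86.4, 127 and 83.8 CPM in control and 336, 218 and 324 CPM in injured libraries and rose by 1.57 ± 0.22. For both genes injured 2 was the lowest injured library and lay above all control libraries. Nr4a1, a related nuclear receptor gene, was at 503, 780.0 and 841 CPM in control and 1224, 1062 and 1400.0 CPM in injured libraries and rose by 0.80 ± 0.15. In the opposite direction, Myc, which drives growth and proliferation, was at 132, 134 and 175 CPM in control and 77.6, 86.97 and 72.7 CPM in injured libraries and fell by 0.89 ± 0.14, and the zinc finger factor gene Egr2 fell by 0.57 ± 0.09. These 5 kept their call without any 1 library, and Nr4a1 lost it in a fit of the 6 libraries alone (edgeR adjusted p = 0.0693). Atf3, a stress-induced factor gene, rose by 0.69 ± 0.16, but its adjusted p was 0.0619 to 0.106 without control 1 or injured 1 or 3. The EGR family gene Egr1 stood at 0.08 ± 0.11.

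Few genes of the IL-1 pathway itself were called, 2 of 23 by edgeR and 4 by DESeq2, all higher. The edgeR count is near the share of 5.57% over all tested genes. Of 23 tested ligands, receptors and adaptors, Il18rap and Myd88 rose, with a median of 0.19 (0.12 without control 1, 0.10 without control 3, 0.13 without injured 1, 0.31 without injured 2 and 0.12 without injured 3). Il18rap, the accessory chain of the IL-18 receptor, was at 5.71, 5.41 and 5.35 CPM in control and 15.7, 15.1 and 12.5 CPM in injured libraries, with narrow groups far apart, and rose by 1.39 ± 0.17 (edgeR adjusted p = 0.000691). Myd88, the adaptor of IL-1 and Toll-like receptors, rose by 0.30 ± 0.08 (edgeR adjusted p = 0.0454), but its adjusted p was 0.0632 to 0.176 without control 1, 2 or 3 or injured 1 or 3. The injected cytokine's own gene Il1b was at 350.1, 643 and 541 CPM in control and 821, 531 and 1025 CPM in injured libraries. Its groups overlapped, and the difference of 0.63 ± 0.28 did not pass the test (edgeR adjusted p = 0.211). The receptor gene Il1r1, the antagonist gene Il1rn and the decoy receptor gene Il1r2 stood at 0.19 ± 0.27, 0.52 ± 0.17 and 1.11 ± 0.38 (edgeR adjusted p = 0.745, 0.0932 and 0.108). In a fit of the 6 libraries alone Il1r2 passed (edgeR adjusted p = 0.039). By DESeq2 both Il1rn and Il1r2 passed (DESeq2 adjusted p = 0.0498 and 0.0495). Il1a stood at 0.19 ± 0.39 and the inflammasome gene Nlrp3 at 0.06 ± 0.12.

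NF-kB genes rose in part. Of 29 tested, 6 rose and none fell, with a median of 0.36 (0.16 without control 1). Relb, the subunit of the alternative NF-kB pathway, was at 6.73, 9.47 and 11.3 CPM in control and 14.9, 18.4 and 18.2 CPM in injured libraries and rose by 0.92 ± 0.19. Bcl3, a nuclear cofactor of NF-kB, was at 3.68, 5.82 and 5.83 CPM in control and 7.92, 10.4 and 15.1 CPM in injured libraries and rose by 1.14 ± 0.23. Their groups did not overlap, and their adjusted p was 0.0539 without injured 3 for Relb and 0.0607 without injured 3 for Bcl3. The RNase gene Zc3h12a, which degrades cytokine mRNA, rose by 0.69 ± 0.16, but its adjusted p was 0.0506 without control 1 and 0.112 without injured 3. The inhibitor genes Tnfaip3 and Nfkbie rose by 0.86 ± 0.22 and 0.74 ± 0.18. The adjusted p of Tnfaip3 was 0.0651 to 0.146 without control 1 or 3 or injured 1 or 3, and that of Nfkbie was 0.0562 to 0.153 without control 1 or 2 or injured 1 or 3. Rel, the sixth, rose by 0.70 ± 0.20 (edgeR adjusted p = 0.0497), but its adjusted p was 0.0550 to 0.223 without control 1, 2 or 3 or injured 1 or 3. The number of called members was 0 without injured 3, 2 without control 1 and 3 without injured 1, and 0 in a fit of the 6 control and injured libraries alone. The classic target genes Nfkbia and Ptgs2 stood at 0.25 ± 0.12 and 0.64 ± 0.34 and Ccl2 at -0.04 ± 0.24, none past the test (edgeR adjusted p = 0.248, 0.310 and 0.953). Tnf had 0 counts in the 15 libraries of the run and was not tested, and Arg1 was too low to test.

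Class II genes, which present antigen to helper T cells, rose in part. Of 16 tested 5 were called higher and none lower, with a median of 0.59. The differences ran from -2.90 to 2.55, and 4 of the 16 were negative. At an unadjusted p under 0.05, 1 member was lower, and DESeq2 called 0 lower. Of 17 class I genes none was called by edgeR, with 1 lower at an unadjusted p under 0.05 and 1 lower by DESeq2. RT1-Ba, an alpha chain, was at 36.04, 26.1 and 36.8 CPM in control and 72.4, 68.5 and 86.7 CPM in injured libraries and rose by 1.20 ± 0.23 (edgeR adjusted p = 0.00680), and the alpha chain gene RT1-Da rose by 1.17 ± 0.23. Both kept their call without any 1 library. Cd74, the invariant chain that guides class II molecules, was at 139.9, 102 and 157 CPM in control and 280.2, 249 and 317 CPM in injured libraries and rose by 1.09 ± 0.23, but its adjusted p was 0.0652 without control 2 and 0.0642 without injured 3. The count of called members was 2 without control 2 or injured 3 and 3 without injured 1 or 2. Ciita, the master activator of class II transcription, stood at 0.93 ± 0.27 (edgeR adjusted p = 0.0582, DESeq2 adjusted p = 0.0343). The class I light chain gene B2m stood at -0.12 ± 0.12. Copies of class II genes share sequence, so the counts of single RT1 genes are uncertain. Monocytes, macrophages at brain borders and dendritic cells also carry class II. Monocyte markers summed to 780.5 to 1076 CPM in control and 1292 to 1672 CPM in injured libraries, without overlap, and most of that sum was Nr4a1. Border-associated macrophage markers summed to 2406 to 2967 CPM in control and 2178 to 3778 CPM in injured libraries, and dendritic cell markers to 28.1 to 31.9 and 31.1 to 33.6 CPM; their part in the rise was not tested.

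Receptors for microbial patterns rose in 5 of 16 tested genes, with none lower and a median of 0.26. Tlr1, a partner of TLR2 for bacterial lipopeptides, was at 10.03, 7.82 and 7.55 CPM in control and 24.5, 19.6 and 17.6 CPM in injured libraries and rose by 1.27 ± 0.20 (edgeR adjusted p = 0.00229). Clec7a, the beta-glucan receptor dectin-1, was at 18.2, 13.5 and 12.7 CPM in control and 32.5, 34.1 and 27.3 CPM in injured libraries and rose by 1.07 ± 0.20. Both kept the call without any 1 library. Tlr7, a receptor for single-stranded RNA, and Tlr2 stood at -0.03 ± 0.19 and 0.05 ± 0.11. The count of called members was 2 without control 3 or injured 1 or 3 and 3 without control 2, and 2 in a fit of the 6 libraries alone. Of 20 chemokine genes Ccl12 and Ccl5 rose, and the count was 0 without control 2 and 1 without control 1 or injured 1 or 3. Ccl12, a monocyte attractant, was at 7.44, 6.58 and 9.95 CPM in control and 15.4, 15.3 and 29.1 CPM in injured libraries and rose by 1.33 ± 0.28, but its adjusted p was 0.0605 without control 2 and 0.0730 without injured 3. Interferon response genes gave 1 edgeR call in 31, against 5.57% of all tested genes, and DESeq2 called 1 higher and 3 lower. The edgeR call was Ifit1, which rose by 3.01 ± 0.83 (edgeR adjusted p = 0.0479). Its adjusted p was 0.0754 to 0.166 without control 1 or 2 or injured 1, 2 or 3. Of the 31 differences 24 were negative, with a median of -0.20 (-0.30 without control 1 and -0.13 without control 2).

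Most genes that define microglial identity did not pass the test. Of 30 homeostatic genes 1 rose and 3 fell, with a median of -0.07 (-0.11 without control 1, -0.03 without injured 2 and -0.11 without injured 3). The list's mean level was 8.93, 9.012 and 9.066 log2 CPM in control and 8.851, 8.879 and 8.915 log2 CPM in injured libraries, lower without overlap. P2ry12, the ADP receptor of resting microglia, was at 1679, 1536 and 1292 CPM in control and 1429, 1200.0 and 1332 CPM in injured libraries, with a difference of -0.19 ± 0.11. Cx3cr1, Csf1r, Tmem119 and the transcription factor gene Sall1 stood at -0.02 ± 0.13, -0.05 ± 0.10, -0.15 ± 0.29 and -0.18 ± 0.08, none past the test. Of those called, Crybb1, a crystallin gene of immature microglia, was at 12.6, 16.9 and 16.8 CPM in control and 3.71, 7.76 and 6.78 CPM in injured libraries and fell by 1.35 ± 0.24, and the fructose transporter gene Slc2a5 was at 451, 442 and 467 CPM in control and 288, 319 and 279 CPM in injured libraries and fell by 0.62 ± 0.11. Both kept the call without any 1 library. The lipid enzyme gene Lpcat2 rose by 0.32 ± 0.07, but its adjusted p was 0.0534 to 0.0640 without control 1 or injured 1 or 3.

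Of 27 tested genes of disease-associated and axon-tract microglia 5 rose and 2 fell, and the rises numbered 2 without control 1 or injured 3 and 3 without control 2 or injured 1 or 2, or 3 in a fit of the 6 libraries alone. The inhibitory receptor gene Lilrb4 was at 4.47, 2.76 and 4.80 CPM in control and 10.9, 10.1 and 11.6 CPM in injured libraries and rose by 1.43 ± 0.23 (edgeR adjusted p = 0.00293), next to Clec7a. The cathepsin genes Ctsb and Ctsl fell by 0.47 ± 0.08 and 0.41 ± 0.07, and the adjusted p of Ctsb was 0.0553 in a fit of the 6 libraries alone. Ctsl was at 2149, 2077 and 2116 CPM in control and 1634, 1530.0 and 1616 CPM in injured libraries, a small change in a gene of narrow spread. Apoe, Igf1, Spp1 and Trem2 of the same program stood at 0.51 ± 0.20, 0.47 ± 0.19, 0.92 ± 0.59 and -0.31 ± 0.17 and did not pass the test. The Fc receptor gene Fcgr2b, the inhibitory receptor for immunoglobulin G, was at 537, 520.3 and 477 CPM in control and 319, 364 and 349 CPM in injured libraries and fell by 0.57 ± 0.11, and the activating Fcgr3a fell by 0.83 ± 0.17, but its adjusted p was 0.0539 without injured 1 and 0.0610 without injured 3. C3, the central complement component, was at 75.2, 67.6 and 49.3 CPM in control and 103, 119.7 and 129.5 CPM in injured libraries and rose by 0.87 ± 0.17, but its adjusted p was 0.0532 without injured 3. C1qa and C1qb, the initiators of the classical pathway, stood at 0.10 ± 0.15 and -0.15 ± 0.13.

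Other called genes came from lists of stress, hormone and other signals, some with few calls. Sgk1, a glucocorticoid-induced kinase gene, was at 727, 766 and 773 CPM in control and 417, 442 and 355 CPM in injured libraries and fell by 0.90 ± 0.11 (edgeR adjusted p = 0.000526). The glucocorticoid target gene Tsc22d3 stood at -0.34 ± 0.13, and of 14 glucocorticoid response genes 2 rose and 3 fell. The rises numbered 0 without control 1 or 2 or injured 2 or 3, 1 without injured 1 and 4 without control 3 and the falls 1 without control 2 or injured 2. Hsp90b1, the chaperone of the endoplasmic reticulum, was at 1765, 1719 and 1651 CPM in control and 1392, 1272 and 1375 CPM in injured libraries and fell by 0.35 ± 0.07. It was 1 of 3 chaperone genes of 14 that fell, and 13 of the 14 differences were negative. The count was 1 without control 2 or injured 1 or 2 or 3. The TGF-beta corepressor gene Tgif1 was at 64.4, 84.01 and 74.3 CPM in control and 114, 111 and 113 CPM in injured libraries and rose by 0.60 ± 0.11. It was the single call among 20 genes of that pathway, near the share of 5.57% over all tested genes. Ndrg1, a hypoxia-responsive gene, was at 11.5, 11.5 and 10.8 CPM in control and 19.3, 19.7 and 22.4 CPM in injured libraries and rose by 0.86 ± 0.15. Sgk1, Tgif1, Ndrg1 and Hsp90b1 kept their call without any 1 library, and Hsp90b1 lost it in a fit of the 6 libraries alone (edgeR adjusted p = 0.0780). Of 31 Wnt pathway genes 2 were called, also near the share of 5.57% over all tested genes. The receptor gene Fzd5 rose by 1.02 ± 0.23 and the effector gene Tcf7l2 fell by 0.52 ± 0.11. Their adjusted p was 0.0633 to 0.0741 without control 1 or injured 1 or 3 for Fzd5 and 0.0704 without control 2 and 0.0678 without injured 3 for Tcf7l2. None of 30 ribosomal protein genes was called by edgeR or by DESeq2, nor passed at an unadjusted p under 0.05.

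**Figure D3:**
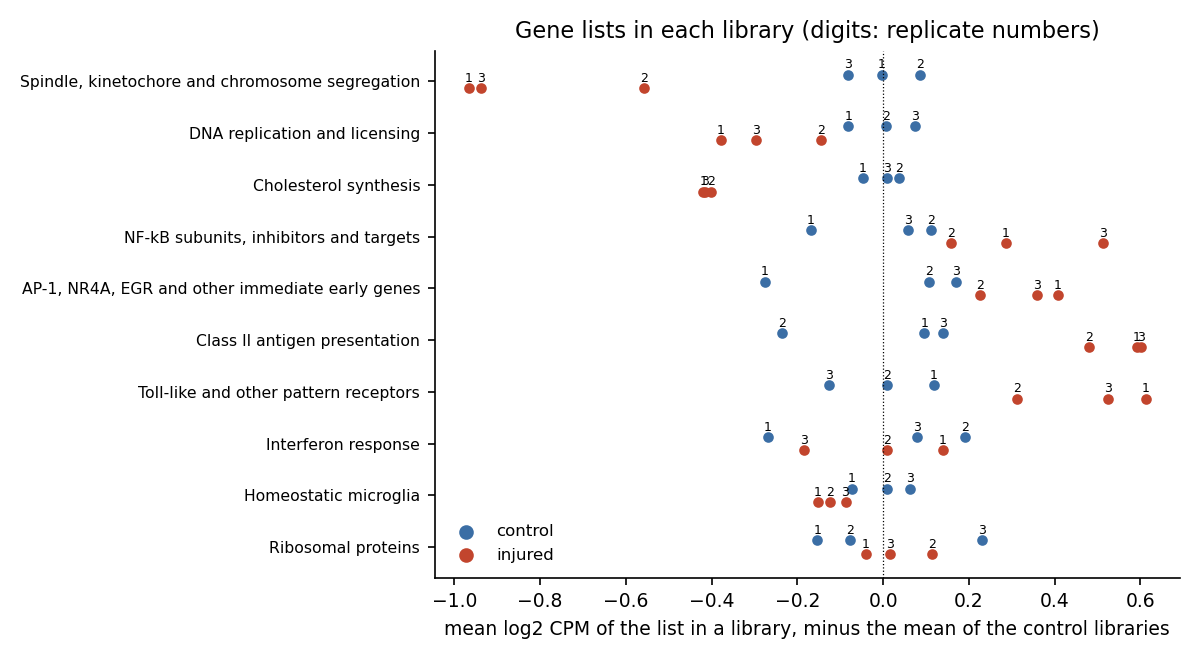
Mean log2 CPM of 10 gene lists in each control (blue) and injured (red) library, as the difference from the mean of the 3 control libraries, with replicate numbers. Spindle, replication, cholesterol and homeostatic microglial genes are lower in all 3 injured libraries. NF-kB, immediate early, class II and pattern receptor genes are higher, and interferon and ribosomal genes overlap.

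Markers of several other cell types moved with injury. Monocytes carry CD11b, the antigen of the enrichment beads. Their markers summed to 780.5 to 1076 CPM in control and 1292 to 1672 CPM in injured libraries, without overlap and with Chi3l3 at 0. Most of the sum was Nr4a1, which is also in the list of early response genes above. Without Nr4a1, an alternative added after seeing the data, the sums were 235 to 278 CPM in control and 230 to 303 CPM in injured libraries and overlapped. Of 10 tested 2 rose and 1, S100a4, fell, with a median of 0.36 (0.19 without control 3), and the rises numbered 1 without control 1 or 2 or injured 2 or 3. Of 13 tested neutrophil markers 6 rose and none fell, with a median of 2.17. The calprotectin gene S100a9 was at 10.7, 14.8 and 19.2 CPM in control and 45.5, 125 and 93.6 CPM in injured libraries and rose by 2.58 ± 0.62 (edgeR adjusted p = 0.0245), and S100a8 rose by 2.61 ± 0.64. The adjusted p was 0.0686 to 0.0878 without control 1 or 2 or injured 2 or 3 for S100a9 and 0.0730 to 0.0914 without control 1 or 2 or injured 2 or 3 for S100a8. Injured 2 held the highest levels, and the defining markers Ltf and Elane had 0 counts in the 6 libraries. The number of called neutrophil markers was 0 without control 1 or 2 or injured 2 or 3 and 3 without control 3. Of 13 mast cell markers 4 rose, with a median of 1.39, and the list summed to 119 to 191 CPM in control and 257 to 461 CPM in injured libraries. Cpa3, the mast cell carboxypeptidase gene, was at 12.8, 12.7 and 29.3 CPM in control and 95.6, 46.1 and 51.6 CPM in injured libraries and rose by 1.84 ± 0.49 (edgeR adjusted p = 0.0416), but its adjusted p was 0.0792 to 0.166 without control 1 or 2 or injured 1 or 3. Here injured 1 was highest, and the count of called mast cell markers was 0 without control 2 or injured 1, 1 without control 1 or injured 3 and 9 without control 3. Of 10 tested T and NK cell markers 4 rose and 1 fell, but the list summed to 69.9 to 80.2 CPM in control and 56.4 to 114 CPM in injured libraries, which overlapped, with Gzmb at 0. The T cell chemokine gene Ccl5 was at 0.301, 0.353 and 0.206 CPM in control and 6.72, 4.61 and 1.06 CPM in injured libraries and rose by 3.80 ± 0.81 (edgeR adjusted p = 0.0132), but its adjusted p was 0.0507 to 0.0607 without control 1 or 2 or injured 1. Cd5, a T and B cell surface gene, was at 13.7, 19.6 and 25.9 CPM in control and 7.82, 9.57 and 8.74 CPM in injured libraries and fell by 1.17 ± 0.24, but its adjusted p was 0.0523 without injured 1 and 0.0534 without injured 3. The T and NK cell rises numbered 0 without control 1 or 2 or injured 1 and 2 without control 3 or injured 2 and the fall 0 without injured 1 or 3. Neuron markers summed to 46.8 to 80.8 CPM in control and 87.5 to 109 CPM in injured libraries, with 1 of 17 called (0 without control 2 or 3 or injured 2 or 3 and 3 without control 1). Endothelial markers summed to 562 to 641 CPM in control and 651 to 776 CPM in injured libraries, with 2 of 10 called higher (0 without control 2 or injured 1 or 3 and 1 without control 1). The part of any of these cells in the changes above was not tested.

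**Figure D4:**
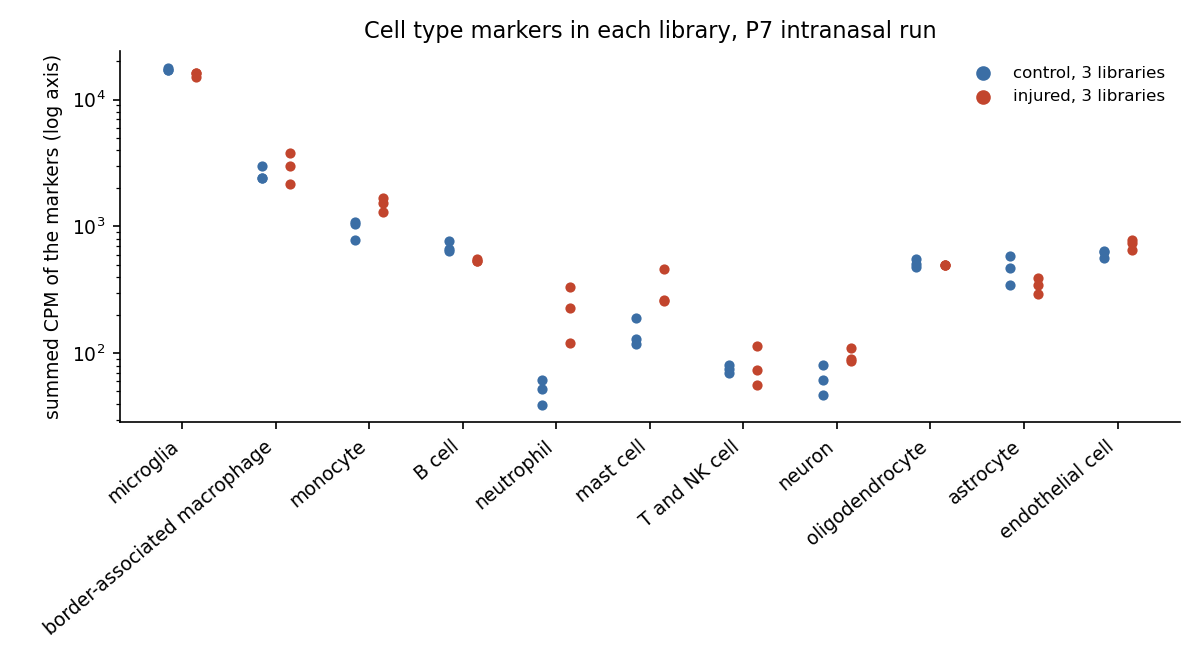
Summed CPM of the markers of 11 cell types in the 3 control (blue) and 3 injured (red) libraries, on a log axis. Microglial markers sum to 15000 to 17840 CPM across the libraries. Microglial and B cell markers lie lower in all injured than in all control libraries. Monocyte (mostly Nr4a1), neutrophil, mast cell, neuron and endothelial markers lie higher in all injured than in all control libraries.

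The same injury was measured at P7 in the intravenous run also, with controls and a sequencing run of its own. The route at P5 and the sequencing run cannot be told apart in this comparison. A joint fit of the 36 control and injured libraries of 6 experiments gave both effects on 1 scale (edgeR, 3 libraries per group). In it 940 genes (6.44%) were called in the intranasal and 61 (0.418%) in the intravenous run. Without replicate 1, 2 or 3 of every group the intravenous count was 4, 2 and 13. Ankrd55 fell by 3.43 ± 0.25 and 2.58 ± 0.24, Ccdc8 by 1.89 ± 0.25 and 1.44 ± 0.24, and Gcnt2 by 1.79 ± 0.28 and 1.23 ± 0.26. Sdc1 rose by 2.09 ± 0.20 and 1.64 ± 0.20, and Nr4a2 by 1.56 ± 0.29 and 1.60 ± 0.29. In the intravenous run, the adjusted p of Ccdc8 was 0.277 without replicate 2 and 0.104 without replicate 3 of every group, that of Gcnt2 0.203 without replicate 1, 0.271 without replicate 2 and 0.426 without replicate 3, and that of Nr4a2 0.118 without replicate 1 and 0.331 without replicate 2. Il6st stood at -1.28 ± 0.32 there and did not pass the test (edgeR adjusted p = 0.0790).

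The mitotic change was smaller in the intravenous run, but the difference between the runs passed the test for no gene. The spindle list had a median of -0.87 in the intranasal and -0.12 in the intravenous run, with 49 and 0 of 56 members lower (background 3.62% and 0.192%). Kif20a stood at -1.11 ± 0.15 and -0.16 ± 0.14, and Mki67 at -0.90 ± 0.17 and -0.08 ± 0.17. The test of the difference, intravenous minus intranasal, gave 0 calls in edgeR, where 734 genes had an unadjusted p under 0.05, and 62 calls in DESeq2. For Kif20a that difference was 0.95 ± 0.20 (edgeR adjusted p = 0.0874), and over the list its median was 0.74. Cholesterol genes had medians of -0.37 and -0.15. Class II genes had medians of 0.58 in the intranasal and 0.57 in the intravenous run. Pattern receptor genes had 0.25 and 0.26, immediate early genes 0.24 and 0.23 and NF-kB genes 0.35 and 0.18. Neutrophil markers had medians of 2.05 and 0.34 and mast cell markers of 1.38 and -0.39; their part was not tested. Of the 772 genes called in the intranasal run, 703 (91.1%) had the same sign in the intravenous run, against 68.3% of all genes tested in both.

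The intranasal runs at P12 and P22, which followed sham at P10 and P20, gave the injury effect at later ages. Age cannot be told apart from the time since the last IL-1β injection, which was at P5 in every run. Nor can it be told apart from the sequencing run and, for P7, from the dissociation kit. Both differences from P7 share the P7 libraries. The injury effect differed between P12 and P7 for 333 genes (2.28%) and between P22 and P7 for 231 (1.58%). Without replicate 1, 2 or 3 of every group the P12 count was 37, 57 and 101 and the P22 count 29, 27 and 2. For Ankrd55 the effect was -3.43 ± 0.25 at P7, -1.08 ± 0.22 at P12 and -0.36 ± 0.22 at P22, differences of 2.35 ± 0.33 and 3.07 ± 0.33 from P7 (edgeR adjusted p = 0.000123 and 4.39e-06). The difference at P12 was called for 44 of the 56 spindle genes (background 1.69% higher) and that at P22 for 14 (1.03%), each with the effect higher at the later age, and with medians of 1.15 and 0.78. Without replicate 1, 2 or 3 of every group the P12 count was 7, 26 and 32 and the P22 count 0, 6 and 0. Kif20a had effects of -1.11 ± 0.15, 0.35 ± 0.15 and -0.62 ± 0.21 at the 3 ages, and its difference of 1.45 ± 0.21 between P12 and P7 had an edgeR adjusted p of 0.000125 (0.0618 without replicate 1). Blk differed by 2.59 ± 0.49 and 2.02 ± 0.47, with an adjusted p of 0.210 without replicate 2 and 0.164 without replicate 3 for P12 and 0.0787 without replicate 1, 0.131 without replicate 2 and 0.427 without replicate 3 for P22. Cholesterol genes differed from P7 in 0 of 27 at P12 and in 5 at P22, or in 1, 0 and 0 without replicate 1, 2 or 3 of every group.

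**Figure D5:**
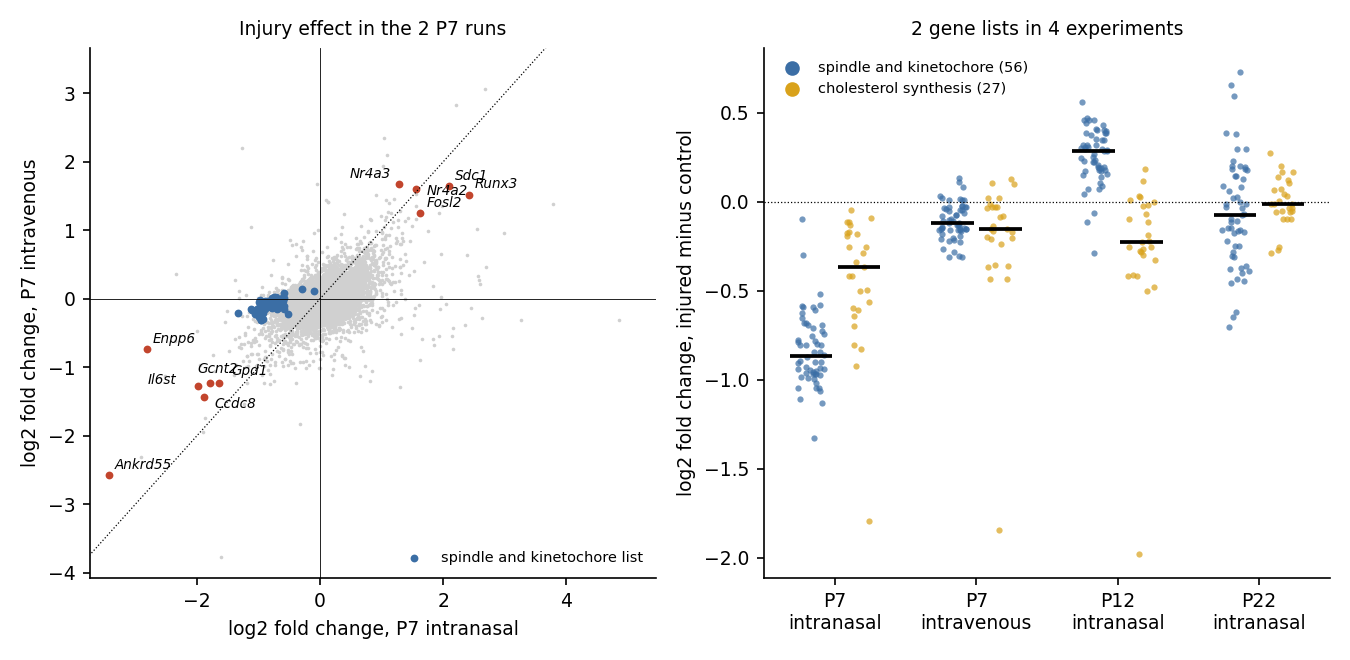
Left, log2 fold change with injury in the intranasal against the intravenous P7 run for genes whose mean log2 CPM reached 1 (grey) and all spindle and kinetochore genes (blue), with named genes in red and the line of equal change dotted. Right, log2 fold changes of the 56 spindle and 27 cholesterol genes with their medians (bars) in 4 experiments; spindle genes centre on -0.87 in the P7 intranasal and -0.12 in the P7 intravenous run.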

How the data were processed

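The deposited table holds raw read counts per gene (32623 genes, 90 libraries). Per the labels' protocols, polyA RNA was made into stranded libraries and sequenced as 75-base single reads, 15 libraries in the run used here. Per the submitters' processing notes the authors used STAR 2.7.2d with HTSeq 0.5.3, SAMtools and DESeq2 1.8.1. The genome build and the strand setting of the counting are not given in the sources used here. Reads without molecular identifiers are not independent molecules.

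From these counts, edgeR 4.0.16 in R 4.3.3 was used: a filter (filterByExpr, minimum count 10, minimum total 15), trimmed mean of M values scaling and a quasi-likelihood fit of the 15 libraries of the run, 1 mean per group. Fold changes are log2 with their SE, and p-values were Benjamini-Hochberg adjusted over all tested genes, with a threshold of 0.05. Differences between runs and ages came from 1 fit of 36 libraries. The fits were tested on simulated data.

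Members and gene lists were chosen with earlier results of these data known. Genes were named if fixed by role, among the 20 largest called changes each way whose mean log2 CPM reached 1, or, per list, among the 8 with the lowest p or the 2 with the highest level; exceptions are stated as such, and some genes the rule names are not reported here. Promoters are the 300-base entries of RefSeq GRCr8 matched by symbol, for members with exactly 1 entry. Alternatives were another scaling, no filter, DESeq2 1.42.0, fewer libraries, the replicate number as a block and leaving out each library.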

Additional observations from a re-analysis of the deposited data

Results flagged for a closer look

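The injury effect differed between ages by the test of the difference itself, in edgeR's quasi-likelihood fit of 36 libraries, for 333 genes at P12 against P7 and for 231 at P22 against P7. Age cannot be told apart from the sequencing run or from the time since the last IL-1β injection, which was at P5 in every run. Some of the largest differences each way follow, as the later effect minus the P7 effect in log2 units ± SE.

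At P12 the difference was -3.49 ± 0.87 for Ccl5, a T cell chemokine gene, and -2.58 ± 0.47 for the Wnt deacylase gene Notum. It was -1.95 ± 0.43 for Ddc, which makes dopamine and serotonin, and -1.94 ± 0.38 for the neutrophil gene Lcn2. On the positive side it was 2.16 ± 0.47 for the T cell gene Cd8a, 2.28 ± 0.63 for Enpp6, 2.35 ± 0.33 for Ankrd55, 2.59 ± 0.49 for Blk and 6.10 ± 1.42 for the fatty acid carrier gene Fabp4. The effect at P7 itself was -3.43 ± 0.25 for Ankrd55 and -1.95 ± 0.34 for Blk. For Ddc, Cd8a and Fabp4 the effect did not pass the test at P7 (edgeR adjusted p = 0.333, 0.706 and 0.604) and was the larger one in size at P12, -1.37 ± 0.29, 2.42 ± 0.36 and 4.93 ± 0.98.

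At P22 the difference was -5.09 ± 1.21 for Tph1, the serotonin synthesis gene of mast cells, and -3.68 ± 0.82 for Ccl5. The effect on Tph1 was 1.84 ± 0.86 at P7 and -3.24 ± 0.85 at P22, and passed the test at neither age (edgeR adjusted p = 0.233 and 0.518). The difference between the ages for the neutrophil genes Mmp8 and Stfa2 was -3.34 ± 0.57 and -2.88 ± 0.76. On the positive side it was 1.71 ± 0.37 for Pttg1, 1.87 ± 0.36 for Gpd1, 2.02 ± 0.47 for Blk, 2.40 ± 0.62 for Enpp6 and 3.07 ± 0.33 for Ankrd55.

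At P12, Ankrd55 passed the test without replicate 1, 2 or 3 of every group. The call at P12 was lost as follows, with the edgeR adjusted p. Ccl5 had 0.160 without replicate 1 and 0.582 without replicate 2. Notum had 0.0618 without replicate 1 and 0.119 without replicate 2. Ddc had 0.0983 without replicate 1 and 0.343 without replicate 2. Lcn2 had 0.0753 without replicate 1 and 0.209 without replicate 2. Cd8a had 0.117 without replicate 1 and 0.0959 without replicate 3. Enpp6 had 0.0983 without replicate 1, 0.612 without replicate 2 and 0.144 without replicate 3. Blk had 0.210 without replicate 2 and 0.164 without replicate 3. Fabp4 had 0.0753 without replicate 1, 0.202 without replicate 2 and 0.409 without replicate 3. At P22, Ankrd55 passed the test without replicate 1, 2 or 3 of every group. The call at P22 was lost as follows, with the edgeR adjusted p. Tph1 had 0.373 without replicate 1, 0.118 without replicate 2 and 0.121 without replicate 3. Ccl5 had 0.301 without replicate 1 and 0.227 without replicate 2. Mmp8 had 0.111 without replicate 2 and 0.188 without replicate 3. Stfa2 had 0.334 without replicate 2 and 0.343 without replicate 3. Pttg1 had 0.302 without replicate 1 and 0.292 without replicate 3. Gpd1 had 0.214 without replicate 2 and 0.145 without replicate 3. Blk had 0.0787 without replicate 1, 0.131 without replicate 2 and 0.427 without replicate 3. Enpp6 had 0.199 without replicate 1, 0.122 without replicate 2 and 0.385 without replicate 3.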

How the results depend on the processing

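The P7 intranasal count of 772 was 1291 with DESeq2, 402 from the 6 control and injured libraries alone, 754 with another scaling, 751 without the filter and 231 to 761 with 1 library left out. With the replicate number as a block it was 741. Same-numbered control and injured libraries deviated together with r = 0.22, 0.07 and 0.06, and differently numbered ones with r from -0.26 to 0.19. The labels do not say what the number marks. With 3 libraries per group these values cannot decide whether equal numbers mark a pairing. The share of higher calls was 48.1%, and 41.1 to 53.6% over all settings. The run difference at P7, 0 genes, became 1 without the filter and 62 with DESeq2. The P12 minus P7 count of 333 became 218 without the filter, 526 with DESeq2, 136 from 12 libraries, 180 with the replicate block and 37 to 101 without 1 replicate of every group. The P22 minus P7 count of 231 became 134, 485, 2, 109 and 2 to 29 under the same settings. The P7 intravenous count of 61 became 133 with DESeq2, 39 with the block and 2 to 13 without 1 replicate. The causes were not tested, beyond the smaller number of samples that leaving out libraries brings.

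Of 1617 alternative values of 147 named genes, 1471 kept direction and side of the threshold, 112 lost and 12 gained a call, and 22 reversed sign. The reversals were all of genes that did not pass the test, and all came from leaving out 1 library. As log2 changes over the 6 refits, their lowest and highest values were Bax -0.194 to 0.0503, C1qa -0.0344 to 0.266, C1qb -0.273 to 0.00600, Ccl2 -0.413 to 0.144, Cd8a -0.246 to 0.506, Csf1r -0.109 to 0.0392, Cx3cr1 -0.0822 to 0.0598, Egr1 -0.0448 to 0.151, Fasn -0.00510 to 0.0748, Il1a -0.228 to 0.557, Il1r1 -0.00960 to 0.499, Map3k1 -0.0526 to 0.139, Mcm5 -0.165 to 0.0484, Nlrp3 -0.0216 to 0.129, Tlr2 -0.0344 to 0.153, Tlr7 -0.195 to 0.0959, Tmem119 -0.359 to 0.232. With 3 libraries per group, low genes such as Il6 and Ccl5 rest on few counts.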

Other observations

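The genes in this paragraph and the next lie outside the naming rule and were chosen after seeing their values. The BCL2 family sets the threshold for apoptosis, and 6 of its genes are given here. Bcl2, the founding survival gene, was at 2.14, 2.06 and 1.99 CPM in control and 4.91, 4.14 and 5.46 CPM in injured libraries and rose by 1.22 ± 0.20 (edgeR adjusted p = 0.00335). The survival gene Bcl2a1 was at 149, 171 and 169.9 CPM in control and 265, 235 and 282 CPM in injured libraries and rose by 0.68 ± 0.14 (adjusted p 0.0620 without control 1 and 0.0671 without injured 3). Of the BH3-only genes that promote cell death, Bmf was at 56.1, 74.1 and 73.2 CPM in control and 135, 103 and 138 CPM in injured libraries and rose by 0.89 ± 0.14, and Bcl2l11, which encodes BIM, was at 35.6, 36.2 and 34.04 CPM in control and 55.9, 52.03 and 57.1 CPM in injured libraries and rose by 0.64 ± 0.09. The groups did not overlap for these 4 genes. The effector genes Bax and Bak1 stood at -0.07 ± 0.13 and -0.13 ± 0.10 and did not pass the test.

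Id2, an inhibitor of E proteins, was at 35.4, 40.04 and 39.1 CPM in control and 103, 75.7 and 103 CPM in injured libraries and rose by 1.30 ± 0.14 (edgeR adjusted p = 0.000254). Pim1, a cytokine-induced kinase gene, was at 35.9, 52.97 and 54.3 CPM in control and 109, 114 and 138 CPM in injured libraries and rose by 1.34 ± 0.17. Gpr183, the receptor gene for oxysterols that guides immune cells, was at 48.4, 66.3 and 57.7 CPM in control and 108, 111 and 115 CPM in injured libraries and rose by 0.95 ± 0.10. Its injured libraries all stood above every control library. Cybb, the catalytic subunit gene of the phagocyte NADPH oxidase, was at 161, 139 and 149 CPM in control and 366, 339.5 and 359 CPM in injured libraries and rose by 1.25 ± 0.25. The repressor gene Prdm1 rose by 0.89 ± 0.12, the NAD hydrolase gene Cd38 by 1.27 ± 0.21 and the sialyltransferase gene St6gal1 by 1.06 ± 0.16. Going the other way, Smpd3, the neutral sphingomyelinase gene, was at 149, 108 and 129.9 CPM in control and 54.7, 59.96 and 70.8 CPM in injured libraries and fell by 1.06 ± 0.16. The part of monocytes, neutrophils or other blood cells in these changes was not tested.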
